A study of Homo sapiens with 12 samples.

Results

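The 40 genes described here act in mitosis and at the G2/M boundary of the cell cycle. They were chosen by name, from what the genes are known to do, and they are 40 of the 24180 gene symbols in the tables. All 40 were present in the tables and all 40 passed the filter on low counts, with 436 as the lowest count of any of them in any library. The libraries are RNA-seq of 143B, an established human osteosarcoma line derived from a bone tumour. The 4 groups of samples, with 3 libraries each, carry in their titles the names NC (the control group), BSG, M-BSG and, last, M-BSG-Hot. The titles also call M-BSG "5-MNP-BSG" and M-BSG-Hot "5-MNP-BSG (+)".

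The series title concerns a borosilicate bioactive glass and magnetic hyperthermia, and the comparisons address how each of the other groups, called treated below, differed from NC and from one another. One and the same treatment entry, which names 5-MNP-BSG, an alternating magnetic field, 20 A and 500 H, stands on all 12 samples including the controls. The labels therefore do not give the material, field, dose or exposure time of each group. All groups were cultured in DMEM with 10% serum at 37 °C and 5% CO2, per the labels' protocols. Separate cultures behind the 3 libraries of a group are not stated, so the p-values rest on the spread between libraries alone, and that spread may be technical.

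Entry into mitosis is driven by CDK1 bound to its cyclins, which the CDC25 phosphatases release from inhibition. The kinases PLK1, AURKA and AURKB then build the spindle and bind chromosomes to it, while the spindle checkpoint holds back the anaphase-promoting complex (APC/C) until every kinetochore is attached. Most of these genes are transcribed together late in the cell cycle: the DREAM complex represses them in resting cells and early in the cycle, and MYBL2 and FOXM1, with the MuvB core, activate them in G2 and mitosis. MuvB binds a short promoter element called the cell cycle homology region (CHR), often close to a CCAAT box, which NF-Y binds. In tumour lines such as 143B the genes are a usual readout of how many cells are dividing. In bulk RNA, fewer cells in G2 or mitosis and less RNA per such cell cannot be told apart.

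What the 40 genes share in sequence is shown first, because it is independent of the libraries. RefSeq promoter windows of human assembly GRCh38.p14, each 300 bases long from 250 bases before the transcription start to 50 after it, were matched by symbol for 33 of the 40. Both strands were searched for the CHR letters TTTGAA and TTCGAA and for CCAAT. The latter CHR form reads the same on both strands, and matches of different motifs may share bases. At least 1 CHR match was present for 26 of the 33 genes (78.8%), against 15.3% of the 12052 tested genes with a window and 19.5% of all 27305 genes in the promoter table. Within 50 bases of the start, the shares were 66.7% of the 33 genes and 4.77% of the tested genes. CCAAT was found for 81.8% against 42.4%, and a CHR match together with CCAAT in the same window for 66.7% against 6.47%. A match is a run of letters and not a measured binding site.

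Of 63 further G2/M genes, 52 had a window and 73.1% of those held a CHR match. Among 25 S phase genes (replication factors and their regulators), 22 had a window and 13.6% held one, near the share of all tested genes, while CCAAT was found for 72.7%. The plot of motif positions shows most CHR matches of the 33 genes close to the start, with CCAAT matches mostly upstream.

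**Figure D1:**
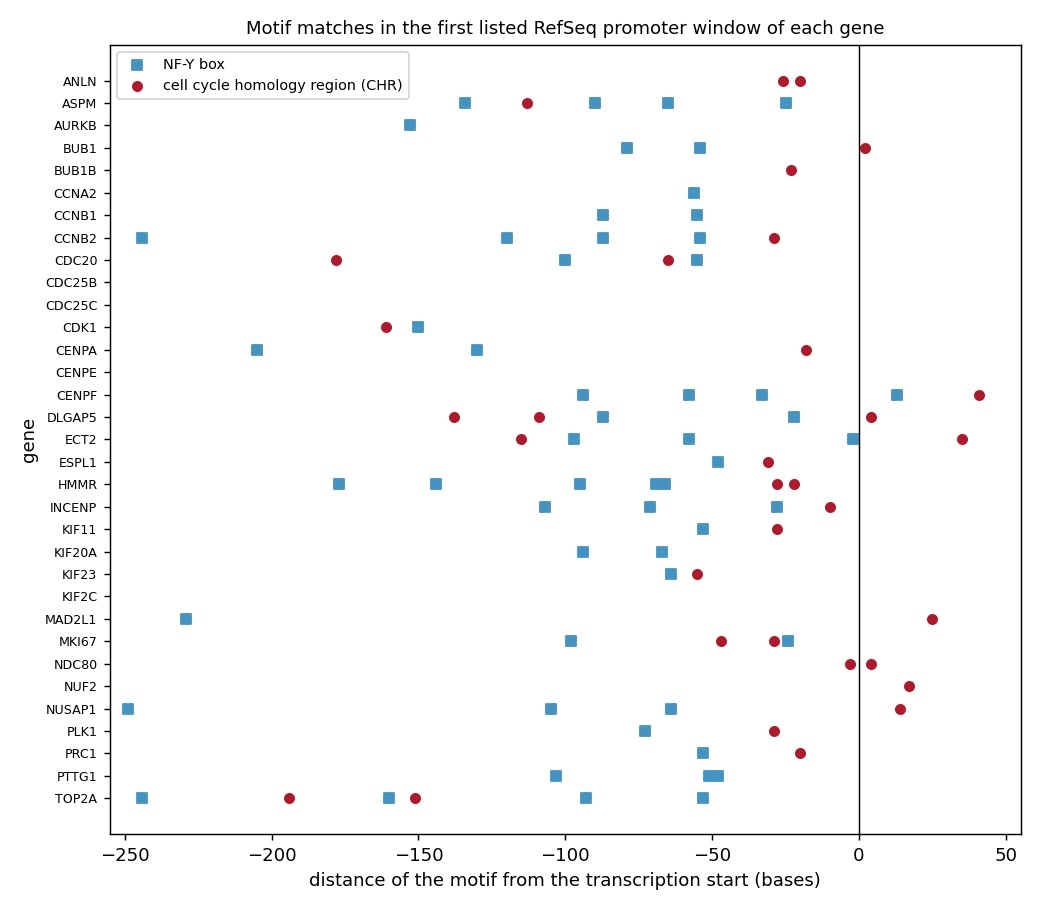
Positions of CHR matches (red circles) and CCAAT matches (NF-Y box, blue squares) in the first listed promoter window of each of the 33 genes; the horizontal axis is the distance in bases from the transcription start and the vertical axis lists the genes. CHR matches lie within 50 bases of the start for most genes, and some genes without a match in this window, such as CDC25B and CDC25C, have one in another listed window.

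The windows of NDC80 and ESPL1 are printed, because these are the called genes with a RefSeq window and they differed from the control in opposite directions. Capitals mark the motif matches; sequences read 5′ to 3′ on the strand of the gene, and positions are counted from the transcription start. NDC80, on the plus strand at chr18:2571307-2571606, carried TTTGAA on the opposite strand from position -3 and TTCGAA from position 4, next to each other. ESPL1, on the plus strand at chr12:53268049-53268348, carried TTTGAA from position -31 and CCAAT on the opposite strand from position -48.
NDC80: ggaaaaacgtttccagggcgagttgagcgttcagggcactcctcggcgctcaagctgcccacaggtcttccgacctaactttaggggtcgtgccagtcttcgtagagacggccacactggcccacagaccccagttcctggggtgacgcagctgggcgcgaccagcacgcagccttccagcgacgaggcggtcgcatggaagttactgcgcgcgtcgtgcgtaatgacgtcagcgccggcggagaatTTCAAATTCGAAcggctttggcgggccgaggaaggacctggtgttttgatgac
ESPL1: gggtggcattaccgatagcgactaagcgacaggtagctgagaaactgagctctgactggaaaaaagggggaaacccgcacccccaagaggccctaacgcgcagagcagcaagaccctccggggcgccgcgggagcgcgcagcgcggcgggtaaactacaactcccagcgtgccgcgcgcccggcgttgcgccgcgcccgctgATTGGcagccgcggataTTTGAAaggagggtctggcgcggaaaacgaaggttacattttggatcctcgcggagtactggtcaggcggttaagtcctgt

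Fold changes overlapped between genes with and without the CHR letters. In BSG against NC the median log2 fold change was 0.01 for the 26 genes with a match and 0.05 for the 7 without, and both NDC80, which was higher, and ESPL1, which was lower, have the letters. In M-BSG-Hot against NC the medians were -0.01 and 0.05.

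Total counts per library ranged from 34434993 to 38163152, and the 40 genes together took between 0.492% (BSG 1) and 0.566% (NC 2) of them. The mesenchymal markers VIM, COL1A1, SPARC and RUNX2 were all above 1 CPM (a count scaled to a common library total, here with TMM factors), with a summed level of 3840 to 4990 CPM. Most of that sum was VIM (mean 3890 CPM), with SPARC at 341, RUNX2 at 14.3 and COL1A1 at 7.84. COL1A2, also listed, was not among the symbols in the tables. Markers of other cell types were mixed. Endothelial markers summed to 1.1 to 2.68 CPM, and the immune marker LYZ was near 0 (mean CPM 0.088) while CD68 averaged 138 CPM. The epithelial keratins KRT8 and KRT18 were high (362 and 968 CPM) and EPCAM averaged 16.2 CPM, while CDH1 and KRT5 were at 0.047 and 0.045 CPM. The epithelial list summed to 1210 to 1340 CPM in NC and 1370 to 1700 in the BSG libraries. It summed to 1200 to 1470 CPM in the libraries of M-BSG and 1210 to 1470 in those of M-BSG-Hot. The part of that list in the results was not tested. In each treated group 1 library stood apart: BSG 1, M-BSG 1 and M-BSG-Hot 3 had the highest share of ribosomal protein counts of their groups (11.3%, 9.95% and 9.86%, against 7.55% to 9.18% in the other 9), and values without them are given beside the calls and the larger differences that rest on them.

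The set as a whole moved little. Against NC, 3 of the 40 genes were called higher in BSG at an adjusted p under 0.05 (AURKA, NDC80 and BIRC5) and 1 was called lower (ESPL1), where the background among 15407 tested genes was 5.5% called higher and 6.22% called lower. The counts rest on single libraries: without NC 3, 0 were called, and without BSG 1, 1 was higher and 0 lower. The background moved as well: without NC 3, 424 of all tested genes were called higher, beside 847 with all 12 libraries. Over the fits without 1 library, 424 to 1329 of all tested genes were called higher and 429 to 1227 lower. The count over all tested genes without BSG 1 is not given here. In M-BSG, 1 gene was higher (AURKA) and 0 lower, with backgrounds of 3.22% and 3.13%. In M-BSG-Hot, 0 were higher and 0 lower by edgeR's quasi-likelihood test, with backgrounds of 1.4% and 3.51%; 3 of the 40 had an unadjusted p under 0.05, and DESeq2 called 1, AURKA. The shares of the 40 called, 10%, 2.5% and 0%, were each below the 11.7%, 6.35% and 4.91% of all tested genes called in either direction. That order in BSG did not hold under each setting: with the length trend described below removed, 17.5% of the 40 and 14.9% of all tested genes were called, and without the 3 libraries that stood apart the shares were 17.5% and 16.3%.

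Each 95% interval bounds how large a missed change of that gene could be, without adjustment for the number of genes. It rests on the spread between libraries. In all 5 comparisons the 95% interval of every one of the 40 genes stayed inside a 2-fold change in either direction. Inside a 1.5-fold change lay 35 intervals in BSG against NC, 39 in M-BSG against NC and 37 in M-BSG-Hot against NC. The median log2 fold change of the 40 was 0.05, 0.06 and 0.02, where that of all tested genes was -0.02, -0.01 and 0.00. With library totals as the only scaling these medians became -0.03, 0.00 and -0.05, so no direction of the whole set held under each scaling. These 3 comparisons share the NC libraries and are not independent of one another.

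**Figure D2:**
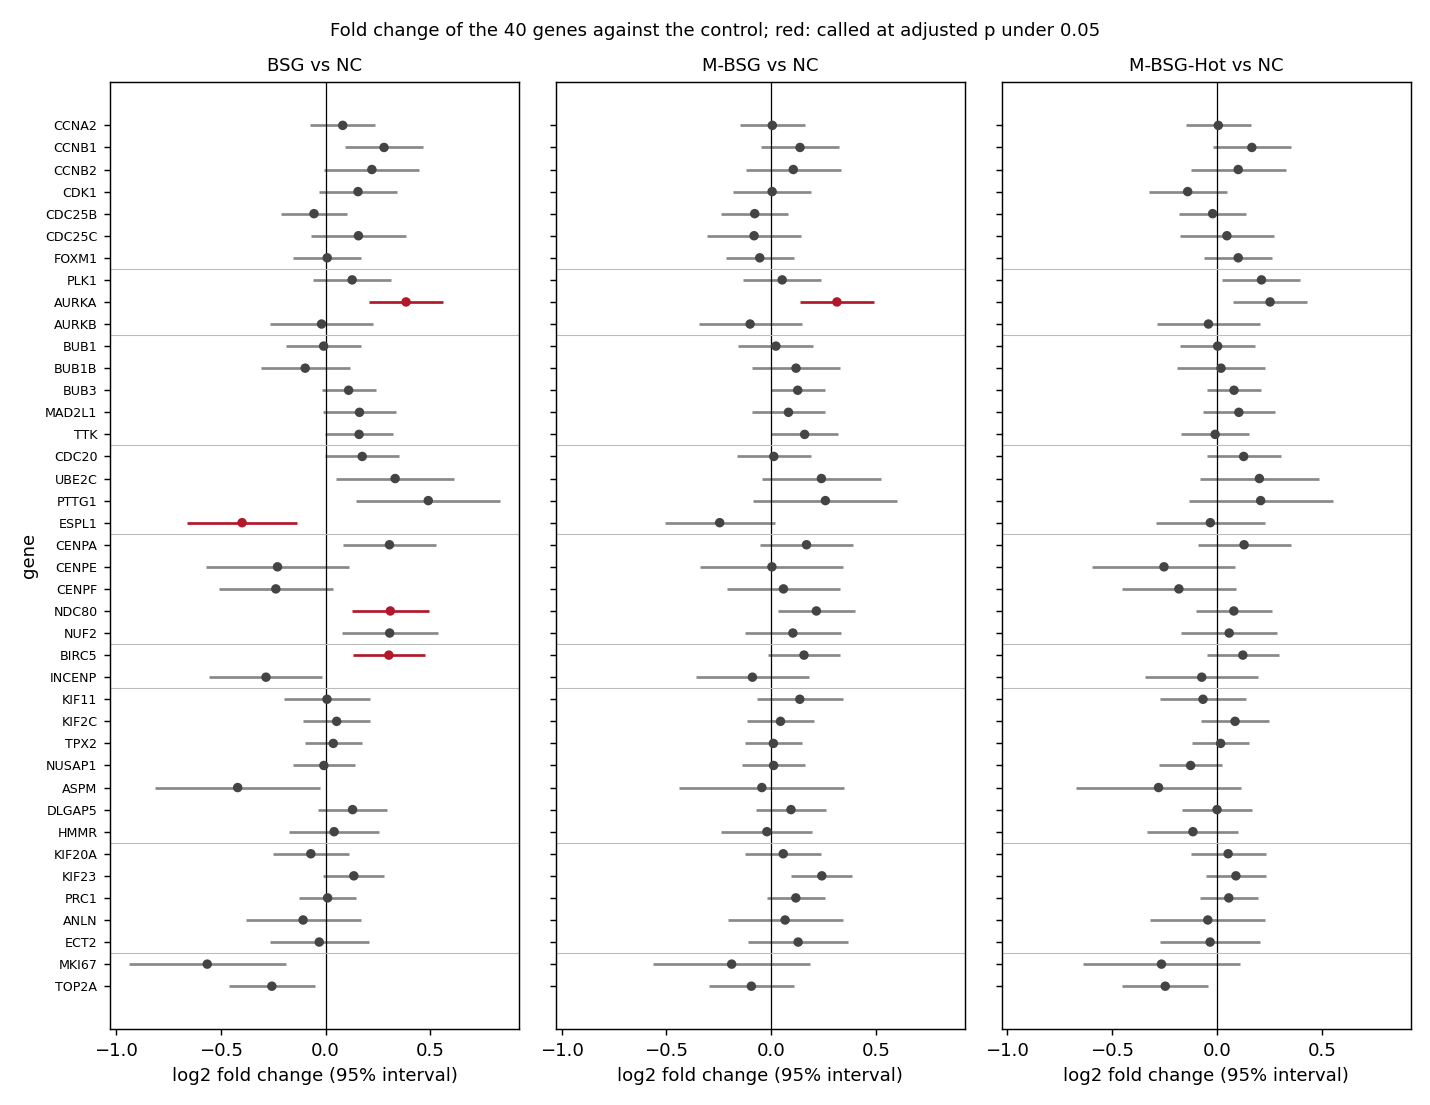
Log2 fold change (horizontal axis) with its 95% interval for each of the 40 genes (vertical axis, separated by role) for each treated group against NC, in the order BSG, M-BSG, M-BSG-Hot; red marks genes called at an adjusted p under 0.05. AURKA is red in the first 2 panels, NDC80, BIRC5 and ESPL1 in the first, and no gene in the third.

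Groups whose 3 libraries did not overlap with those of NC were counted as a second view. It needs no model of the spread but uses the same TMM-scaled CPM, so it depends on that scaling. In BSG 22 of the 40 genes did not overlap (17 above NC and 5 below), against a background of 38.7% of all tested genes. Of the 15407 tested genes, 2791 lay above NC and 3170 below. In M-BSG there were 13 (11 above and 2 below) against 27.5% (1913 tested genes above and 2323 below). In M-BSG-Hot there were 10 (7 above and 3 below) against 28% (2076 above and 2236 below). Unlike the shares called, the share of the 40 genes that did not overlap was above the background in BSG and M-BSG. By group mean on the CPM scale, 18 of the genes were highest in BSG, 12 in M-BSG, 7 in NC and 3 in M-BSG-Hot. Per length (FPKM) the order of the 4 groups was the same for 19 of the 40, so for the rest the order depends on the scaling.

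**Figure D3:**
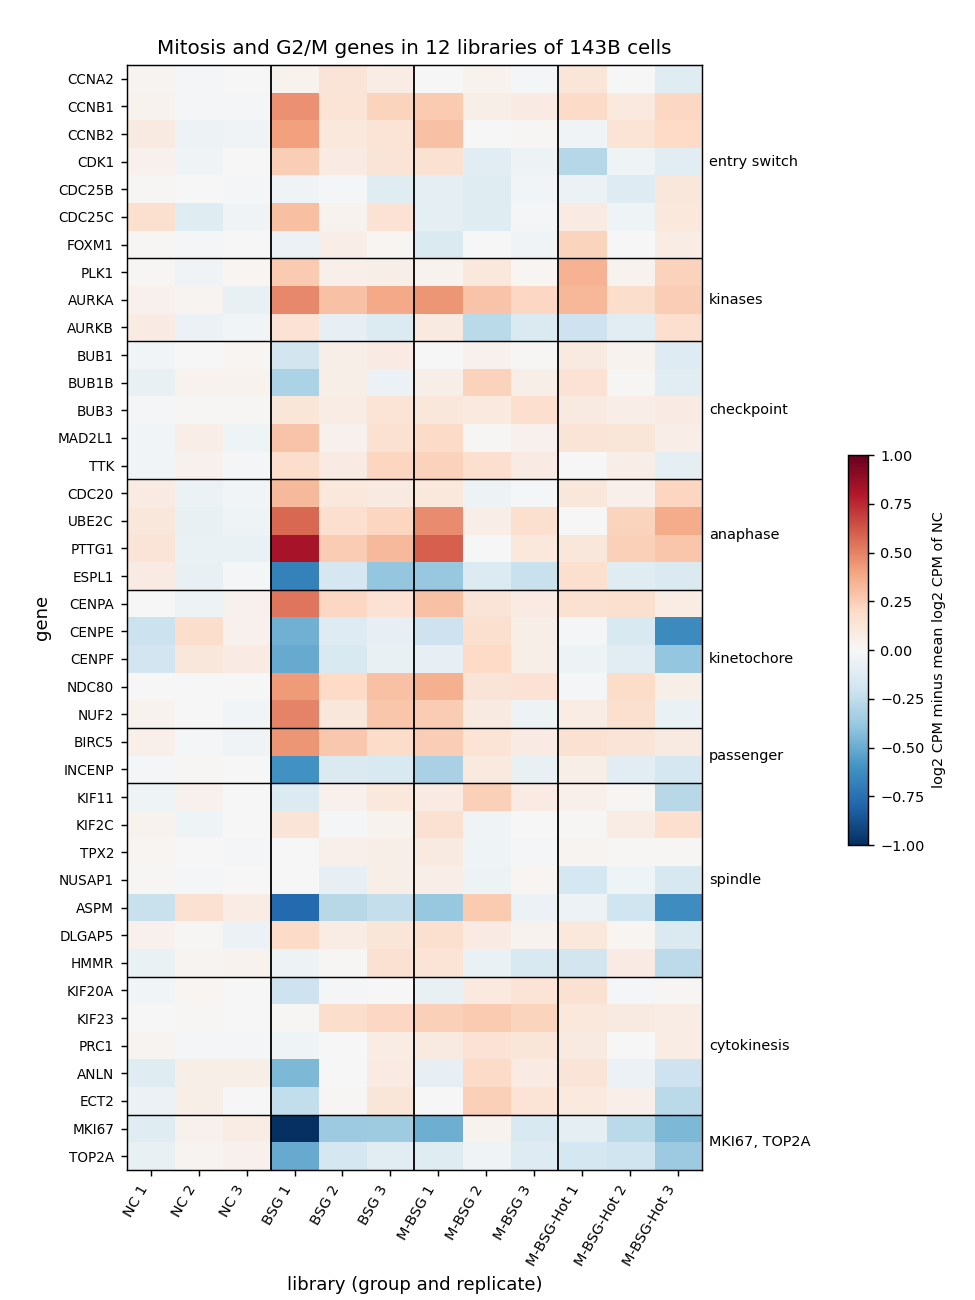
Log2 CPM of each of the 40 genes (rows, by role) in the 12 libraries (columns) minus the mean log2 CPM of the NC libraries; red is higher, blue lower, and colours stop at 1 in either direction, which MKI67 passes in BSG 1. The AURKA row is red in all 9 treated libraries, and BSG 1 holds the deepest colours in both directions.

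Levels between genes are compared per length, in FPKM in the NC libraries. CDC20 (135.5 ± 5.72, SD, n = 3), the APC/C activator, and TPX2 (134.8 ± 1.05), which activates AURKA on the spindle, stood highest and did not differ beyond their spread. UBE2C, the ubiquitin-conjugating enzyme of the APC/C, followed at 112.6 ± 6.57 FPKM, CCNB1 at 88.3 ± 0.887 and PTTG1 at 65.9 ± 4.58. The lowest were CDC25C at 5.17 ± 0.464 FPKM, CENPE at 8.12 ± 1.18 and ESPL1 at 9.74 ± 0.428.

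Of the genes of the entry switch, none of 7 was called by edgeR in any of the 3 comparisons with NC, and DESeq2 called 1, CCNB1, higher in BSG (0.29, adjusted p 0.0177). CCNB1, the B-type cyclin that activates CDK1, had 177.0, 170.4 and 171.5 CPM in NC, 237.4, 190.4 and 201.6 in the BSG libraries, 207.2, 180.4 and 182.9 in those of M-BSG and 197.4, 185.4 and 199.3 in those of M-BSG-Hot. Every treated library lay above every NC library, with BSG 1 the highest. The log2 fold change in BSG was 0.28 (SE 0.087, adjusted p 0.0534; 0.19 without BSG 1), and in M-BSG and M-BSG-Hot it was 0.14 and 0.17 (SE 0.087 each, adjusted p 0.46 and 0.36). CCNA2 (S and G2 cyclin A), CCNB2 (a second B-type cyclin), CDK1 itself, the activating phosphatases CDC25B and CDC25C and the transcription factor FOXM1 had log2 fold changes between -0.06 and 0.22 in BSG. For FOXM1 the values were 0.01 in BSG, -0.06 in M-BSG and 0.10 in M-BSG-Hot.

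Among the mitotic kinases, AURKA had the lowest adjusted p of the 40 genes. AURKA, which matures centrosomes and builds the spindle poles, had 114.5, 113.0 and 105.6 CPM in NC, 154.6, 135.8 and 144.4 in the BSG libraries, 150.7, 135.4 and 127.8 in those of M-BSG and 139.5, 125.6 and 131.7 in those of M-BSG-Hot. All 9 treated libraries were above all 3 control libraries. The log2 fold change was 0.38 (SE 0.081, adjusted p 0.00774) in BSG, a rise of 30.5%, and 0.31 (SE 0.081, adjusted p 0.0343) in M-BSG, a rise of 24.3%. In M-BSG-Hot it was 0.25 (SE 0.081, adjusted p 0.107), and between the treated groups it was -0.07 (95% interval -0.25 to 0.10) for M-BSG against BSG and -0.06 (-0.24 to 0.11) for M-BSG-Hot against M-BSG. The call in BSG was lost without NC 3 alone (adjusted p 0.0526) and kept without each of the other libraries. That in M-BSG was lost without any 1 of NC 1, NC 2, NC 3, BSG 3, M-BSG 1 and M-BSG 2 (adjusted p 0.05 to 0.163) and with library totals as the only scaling (adjusted p 0.0586).

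PLK1, the kinase with the highest CPM of this role, had 131.9, 128.1 and 132.8 CPM in NC, 156.6, 135.6 and 136.6 in the BSG libraries, 134.1, 140.5 and 132.5 in those of M-BSG and 166.9, 133.9 and 154.0 in those of M-BSG-Hot. BSG and M-BSG-Hot lay above NC throughout, and M-BSG overlapped with it. Its log2 fold changes were 0.13, 0.05 and 0.21 (SE 0.087 each, adjusted p 0.337, 0.827 and 0.221), and without BSG 1 the first was 0.06. AURKB, the kinase of the chromosomal passenger complex, was at -0.02, -0.10 and -0.04. Whether reads shared between AURKA and near-identical pseudogene copies were counted to AURKA is not given in the sources used here.

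**Figure D4:**
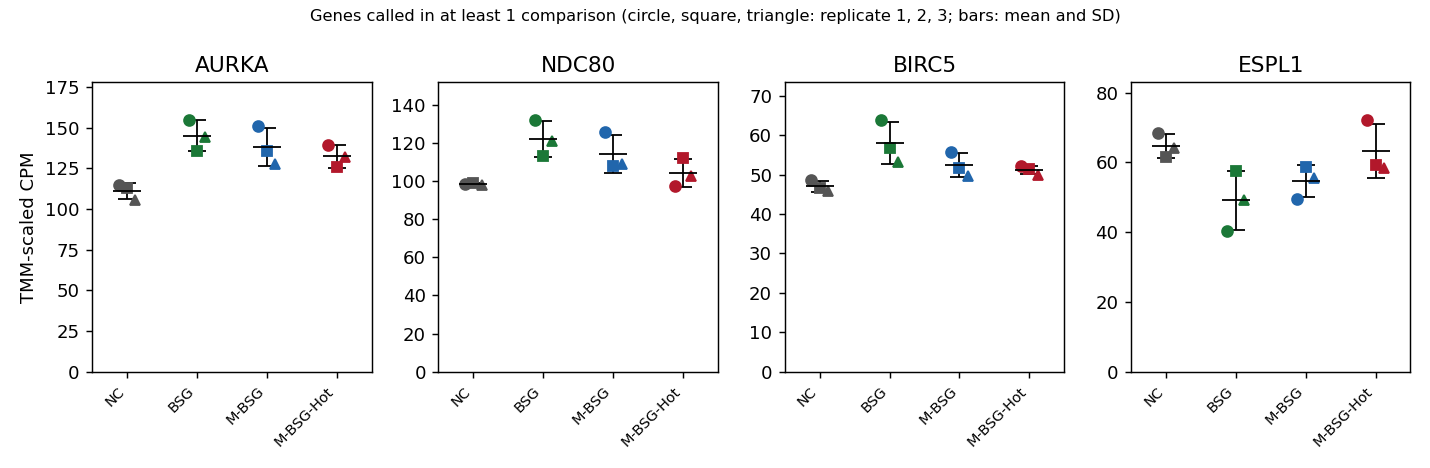
TMM-scaled CPM (vertical axis, from 0) of AURKA, NDC80, BIRC5 and ESPL1 in each library of the 4 groups (horizontal axis); symbols are replicates 1, 2 and 3 and bars the group mean and SD. AURKA, NDC80 and BIRC5 lie higher in BSG than in NC, and ESPL1 lies lower.

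In the spindle checkpoint, 0 of 5 genes were called. BUB3, which carries checkpoint proteins to the kinetochore, had 236.3, 242.0 and 241.7 CPM in NC, 260.5, 252.4 and 264.0 in the BSG libraries, 258.9, 256.9 and 269.9 in those of M-BSG and 256.0, 250.9 and 254.5 in those of M-BSG-Hot. Treated and control libraries were fully apart although the difference was small, with log2 fold changes of 0.11, 0.13 and 0.08 (SE 0.060 each, adjusted p 0.231, 0.285 and 0.535). The kinase BUB1, its relative BUB1B (BubR1), the APC/C-inhibiting MAD2L1 and the kinase TTK (MPS1) had log2 fold changes between -0.10 and 0.16 in BSG and between 0.02 and 0.16 in M-BSG.

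The genes of anaphase spread in both directions. ESPL1, separase, which cuts cohesin to part the sister chromatids, had 68.6, 61.5 and 64.0 CPM in NC, 40.4, 57.5 and 49.4 in the BSG libraries, 49.6, 58.7 and 55.4 in those of M-BSG and 72.1, 59.3 and 58.4 in those of M-BSG-Hot. BSG and M-BSG lay below NC throughout, and M-BSG-Hot overlapped with it. The log2 fold change was -0.40 (SE 0.122, adjusted p 0.0498) in BSG, -0.25 (adjusted p 0.308) in M-BSG and -0.03 (adjusted p 0.929) in M-BSG-Hot. The call in BSG was just inside the threshold and was lost without 9 of the 12 libraries taken 1 at a time. Without BSG 1 the log2 fold change was -0.27 (adjusted p 0.18).

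PTTG1, securin, which holds separase inactive, was not called in BSG by edgeR. It had 98.5, 86.2 and 86.0 CPM in NC, 159.8, 107.5 and 113.0 in the BSG libraries, 136.6, 90.1 and 97.0 in those of M-BSG and 97.3, 106.4 and 109.1 in those of M-BSG-Hot. BSG 1 and M-BSG 1 stood far above the rest of their groups, and the log2 fold change of 0.49 in BSG missed the threshold (adjusted p 0.0614). DESeq2 called it higher (adjusted p 0.0232), and without the 3 libraries that stood apart it was called by edgeR at 0.28 (adjusted p 0.0103). Reads shared with near-identical PTTG copies may be counted to it. CDC20 had 228.6, 206.6 and 211.9 CPM in NC, 269.2, 231.8 and 229.7 in the BSG libraries, 231.4, 207.6 and 213.8 in those of M-BSG and 233.0, 223.8 and 250.0 in those of M-BSG-Hot, with log2 fold changes of 0.18, 0.01 and 0.13 (SE 0.082 each, adjusted p 0.167, 0.965 and 0.469). BSG alone lay wholly above NC, and without BSG 1 its log2 fold change was 0.105. UBE2C was at 0.33, 0.24 and 0.20 (adjusted p 0.109, 0.37 and 0.471).

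At the kinetochore, 1 of 5 genes was called in BSG by edgeR, and DESeq2 also called CENPA and NUF2 higher (adjusted p 0.034 and 0.0405). NDC80, the microtubule-binding subunit of the outer kinetochore, had 98.4, 98.9 and 98.0 CPM in NC, 132.0, 113.0 and 120.9 in the BSG libraries, 125.9, 107.8 and 109.0 in those of M-BSG and 97.6, 112.0 and 102.6 in those of M-BSG-Hot. Its NC libraries were the closest together of all 40 genes. The log2 fold change was 0.31 (SE 0.085, adjusted p 0.0321) in BSG, 0.22 (adjusted p 0.181) in M-BSG and 0.08 (adjusted p 0.678) in M-BSG-Hot. The call was lost without any 1 of NC 1, NC 2, NC 3, BSG 1 and BSG 3 (adjusted p up to 0.109) and with library totals as the only scaling (0.23, adjusted p 0.0723). Without BSG 1 the log2 fold change of NDC80 in BSG was 0.257.

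NUF2, the partner of NDC80, was at 0.31, 0.10 and 0.06 (adjusted p 0.0749, 0.688 and 0.826), and CENPA, the histone that marks centromeres, at 0.30, 0.17 and 0.13 (adjusted p 0.0682, 0.44 and 0.566). CENPF, a large corona protein of the kinetochore, had 192.9, 237.9 and 233.1 CPM in NC, 155.5, 198.1 and 209.8 in the BSG libraries, 208.0, 253.1 and 229.8 in those of M-BSG and 213.2, 203.6 and 168.3 in those of M-BSG-Hot. All treated groups overlapped with NC, whose first library was itself low, and the log2 fold changes were -0.24, 0.06 and -0.18 (SE 0.126 each, adjusted p 0.219, 0.88 and 0.501), the first at -0.11 without BSG 1. The kinesin CENPE was at -0.23, 0.00 and -0.25.

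Of the chromosomal passenger subunits, BIRC5 was called in BSG. BIRC5, survivin, had 48.6, 46.7 and 45.8 CPM in NC, 63.9, 56.8 and 53.3 in the BSG libraries, 55.7, 51.8 and 49.8 in those of M-BSG and 52.13, 51.47 and 50.02 in those of M-BSG-Hot. All treated libraries lay above NC. The log2 fold change was 0.30 (SE 0.080, adjusted p 0.0272) in BSG, 0.16 (adjusted p 0.331) in M-BSG and 0.12 (adjusted p 0.474) in M-BSG-Hot. The call in BSG was lost without any 1 of NC 1, NC 2, NC 3 and BSG 1 (adjusted p up to 0.115). Without BSG 1 the log2 fold change of BIRC5 in BSG was 0.235. INCENP, the scaffold of the same complex, had 97.4, 98.9 and 98.8 CPM in NC, 64.7, 89.1 and 88.6 in the BSG libraries, 78.6, 105.3 and 93.4 in those of M-BSG and 102.4, 91.0 and 87.1 in those of M-BSG-Hot. It was lower in all 3 BSG libraries, lowest in BSG 1, at -0.28 (SE 0.125, adjusted p 0.143) and at -0.14 without BSG 1; the other groups overlapped with NC, at -0.09 and -0.07 (adjusted p 0.784 and 0.815).

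None of the 7 spindle motors and microtubule proteins was called. TPX2 had 463.1, 456.4 and 453.6 CPM in NC, 459.4, 473.1 and 476.6 in the BSG libraries, 487.5, 444.0 and 450.9 in those of M-BSG and 466.0, 461.2 and 462.6 in those of M-BSG-Hot. The groups overlapped, and the log2 fold changes were 0.04, 0.01 and 0.02 (SE 0.063 each, adjusted p 0.715, 0.964 and 0.926). Over all 12 libraries TPX2 had a coefficient of variation of 2.57%. ASPM, the spindle pole protein, was at -0.42, -0.05 and -0.28 (adjusted p 0.142, 0.942 and 0.478), with 61.9 CPM in BSG 1 and 69.3 in M-BSG-Hot 3 as the lowest libraries. Without the 3 libraries that stood apart, ASPM was at -0.27 in BSG (adjusted p 0.0638). The motors KIF11 and KIF2C and the microtubule-binding NUSAP1, DLGAP5 and HMMR stayed between -0.01 and 0.13 in BSG.

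Of the 5 midzone and cytokinesis genes, none was called, and KIF23 came closest. KIF23, a centralspindlin motor, had 108.4, 109.2 and 108.0 CPM in NC, 109.5, 122.5 and 125.6 in the BSG libraries, 128.0, 130.1 and 126.5 in those of M-BSG and 116.9, 115.2 and 114.4 in those of M-BSG-Hot. The M-BSG libraries lay close together and above those of every other group, with a log2 fold change of 0.24 against NC (adjusted p 0.0505). It was called higher in M-BSG by DESeq2 (adjusted p 0.0029). ANLN, anillin of the contractile ring, had 211.6, 240.1 and 240.1 CPM in NC, 169.0, 230.3 and 243.2 in the BSG libraries, 217.6, 262.8 and 243.8 in those of M-BSG and 251.1, 220.5 and 199.7 in those of M-BSG-Hot, overlapping throughout at -0.11, 0.07 and -0.04 (SE 0.128 each, adjusted p 0.596, 0.856 and 0.901). The kinesin KIF20A, the microtubule bundler PRC1 and the RhoA activator ECT2 were between -0.07 and 0.01 in BSG.

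MKI67 and TOP2A had lower means in BSG than in NC, and neither was called by edgeR, while DESeq2 called MKI67 lower in BSG (-0.55, adjusted p 0.0203). MKI67, the Ki-67 proliferation antigen that coats mitotic chromosomes, had 470.3, 527.7 and 540.0 CPM in NC, 241.8, 398.6 and 399.8 in the BSG libraries, 363.9, 523.5 and 461.6 in those of M-BSG and 481.6, 423.7 and 374.6 in those of M-BSG-Hot. All BSG libraries lay below NC, BSG 1 by far the most, and the other groups overlapped with NC. The log2 fold change was -0.56 (SE 0.174, adjusted p 0.0512) in BSG, just outside the threshold, and -0.19 and -0.27 (adjusted p 0.639 and 0.476) in M-BSG and M-BSG-Hot. Without BSG 1 it was -0.35 (adjusted p 0.143). TOP2A, topoisomerase II alpha, which untangles chromosomes, was at -0.26, -0.10 and -0.25 (adjusted p 0.0923, 0.673 and 0.188).

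Fold change followed gene length. The gene lengths that the deposited tables imply ran from 1224 to 13228 bases for the 40 genes, with a median of 3450. In BSG against NC, Pearson's r across the 40 genes between log2 fold change and log2 length was -0.815 (Spearman's rho -0.757), and in M-BSG-Hot and M-BSG against NC r was -0.728 and -0.453. Across the 9666 tested genes of at least 10 CPM the same values were -0.496, -0.347 and -0.21. Genes share libraries, depth and scaling and are not independent replicates, so these correlations describe these libraries. In BSG the 20 shorter genes had a median log2 fold change of 0.17, with 17 above 0, and the 20 longer ones -0.04, with 12 below 0.

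The difference between short and long genes was widest in 3 libraries. The median difference from NC in BSG 1 was 0.31 for the shorter and -0.21 for the longer genes. In M-BSG 1 the medians were 0.16 and -0.04, and in M-BSG-Hot 3 they were 0.08 and -0.14. In the other 4 libraries of BSG and M-BSG the shorter and longer genes lay within 0.112 of each other. The same 3 libraries had the most ribosomal protein counts of their groups (11.3%, 9.95% and 9.86%). The part of library differences in the gene results was not tested beyond the fits that follow.

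**Figure D5:**
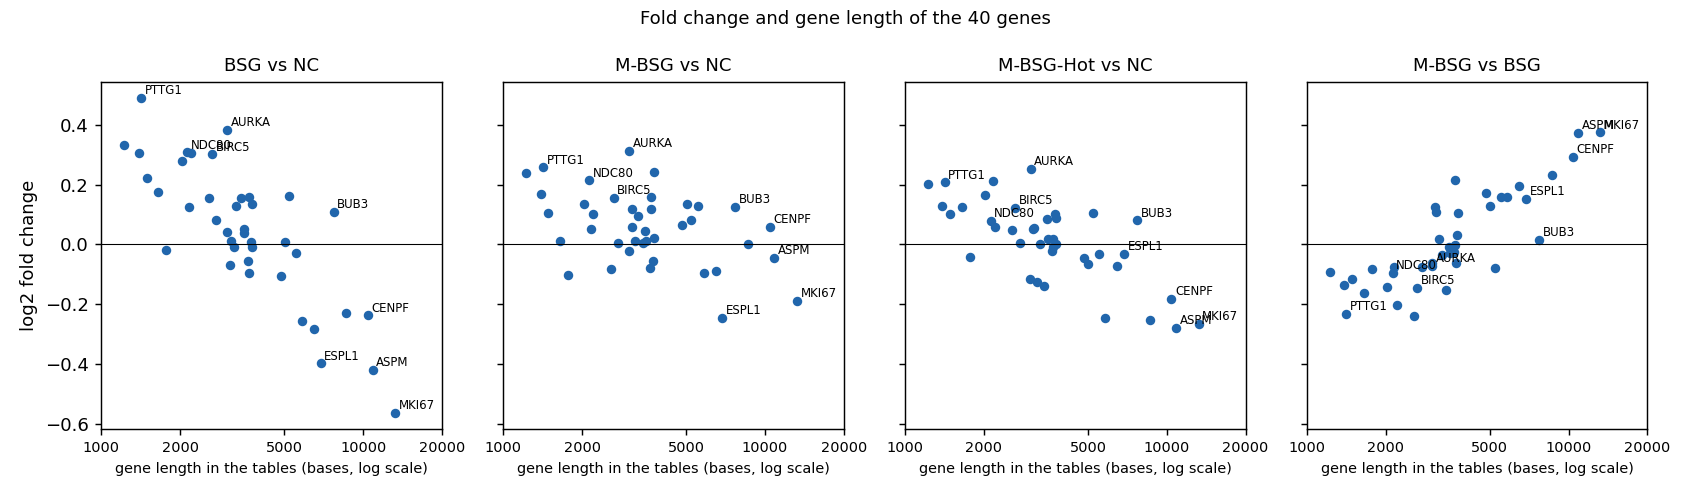
Log2 fold change (vertical axis) against the gene length in the tables (horizontal axis, log scale) for the 40 genes for the treated groups against NC and for M-BSG against BSG; each point is a gene and some are named. Most of the 20 shorter genes lie above 0 (17) and 12 of the 20 longer below in BSG against NC (r -0.815), the trend runs the other way in M-BSG against BSG (r 0.833), and AURKA lies above genes of like length in the first 3 panels.

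With the trend with gene length removed across all tested genes, 4 of the 40 were called higher in BSG (AURKA, BIRC5, BUB3 and PTTG1; background 7.46%) and 3 lower (ESPL1, MKI67 and AURKB; background 7.4%). Of the 4 original calls 3 remained, and NDC80 did not (0.17, adjusted p 0.0758). AURKA was at 0.32 (SE 0.064, adjusted p 0.00299) and MKI67 at -0.33 (SE 0.077, adjusted p 0.00964). In M-BSG, AURKA and KIF23 were called higher (background 4.84%) and no gene lower (4.81%). In M-BSG-Hot no gene was called, with backgrounds of 2.08% and 4.87%. The correlation with length across the 40 genes was still -0.43 in BSG.

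Without these 3 libraries (BSG 1, M-BSG 1, M-BSG-Hot 3), 5 of the 40 were called higher in BSG (AURKA, NDC80, BIRC5, PTTG1 and KIF23; background 7.07%) and 2 lower (ESPL1 and MKI67; background 9.22%), and all 4 original calls remained. In M-BSG, AURKA and KIF23 were called higher (background 6.72%) and AURKB lower (background 5.93%). AURKA was then at 0.33 in BSG, 0.24 in M-BSG and 0.25 in M-BSG-Hot (adjusted p 0.0017, 0.0171 and 0.0174). Several uncalled values in BSG were smaller without these libraries, among them UBE2C (0.18), CENPA (0.17), NUF2 (0.19) and TOP2A (-0.16). The correlation with length was -0.701 in BSG and -0.518 in M-BSG-Hot, while in M-BSG it was 0.052 (rho 0.099), so the relation in M-BSG was not seen without them.

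Between the preparations none of the 40 genes was called. In M-BSG against BSG 0 of the 40 were called in either direction, where 0% of all tested genes were called higher and 0.13% lower; 4 had an unadjusted p under 0.05 and DESeq2 also called 0. The libraries of 4 genes did not overlap, against a background of 8.89%. All 7 entry switch genes had a lower mean in M-BSG (median log2 fold change -0.12) and all 5 midzone and cytokinesis genes a higher one (median 0.13), none of them called, and the correlation with gene length was 0.833.

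In M-BSG-Hot against M-BSG, which bear the same material name with and without the plus sign, 0 of the 40 were called by edgeR or DESeq2, with backgrounds of 0.0974% higher and 0.597% lower; 2 had an unadjusted p under 0.05. The libraries of 5 genes did not overlap (background 13.8%, with 967 of all tested genes above and 1155 below). All 5 were lower in M-BSG-Hot: BUB3, TTK, KIF11, KIF23 and TOP2A, at -0.05, -0.17, -0.20, -0.15 and -0.15. All 5 kinetochore genes and all 5 midzone and cytokinesis genes had a lower mean in M-BSG-Hot, with medians of -0.13 and -0.11, none of them called. Of all 40 genes, 27 were lower there and 13 higher, and the correlation with gene length was -0.384. The median over the 40 genes was -0.05 (all tested genes 0.00). Without BSG 1, M-BSG 1 and M-BSG-Hot 3 it was 0.006. Every interval stayed inside a 2-fold change, and 38 stayed inside a 1.5-fold change.

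Replicates were tight in the control and looser elsewhere. The median SD of log2 CPM over the 40 genes was 0.046 in NC, 0.13 in the BSG libraries, 0.105 in those of M-BSG and 0.116 in those of M-BSG-Hot. The largest were 0.418 for MKI67 in BSG and 0.327 for CENPE in M-BSG-Hot. For tested genes of at least 10 CPM the median SD was 0.067, 0.142, 0.124 and 0.116.

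Other genes of the pathway were read from lists chosen by function. Their values are from the main fit only. How they change under the other settings or without single libraries was not examined. Of the 63 further G2/M genes, 5 were called higher and 1 lower in BSG, and 4 higher and 1 lower in M-BSG. These are 9.52% of the list beside 11.7% of all tested genes in BSG, and 7.94% beside 6.35% in M-BSG. FBXO5, the APC/C inhibitor EMI1, was the most clearly changed, from 31.8 ± 0.923 CPM in NC to 42.8 ± 1.37 in BSG and 40.6 ± 0.955 in M-BSG (SD, n = 3; log2 fold changes 0.43 and 0.36, adjusted p 0.00121 and 0.00626). CKS2, a CDK-binding subunit, and KPNA2, an importin, were higher in BSG by 0.42 and 0.32 (adjusted p 0.0207 and 0.0168). In M-BSG, CKS2 had the highest log2 fold change of the list, 0.42. KPNA2 was also higher in M-BSG, by 0.31, as was CDCA2, which recruits a phosphatase to chromatin, by 0.28 (adjusted p 0.0284 and 0.0289). CCNF, cyclin F, was lower in both, at -0.38 and -0.36 (adjusted p 0.0136 and 0.0257). In M-BSG-Hot against NC 0 of the 63 were called by edgeR, with 6 at an unadjusted p under 0.05.

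Among 19 regulators of these genes (the DREAM and MuvB subunits and their controllers), CDKN1A, the CDK inhibitor p21, rose from 95.3 ± 6.29 CPM in NC to 150.4 ± 10.6 in BSG and 148.5 ± 7.92 in M-BSG (log2 fold changes 0.66 and 0.64, SE 0.101 each, adjusted p 0.000835 and 0.00134). RBL2, the p130 pocket protein of DREAM, fell to 35.8 ± 6.2 CPM in BSG from 50.1 ± 4.11 (log2 fold change -0.48, adjusted p 0.0284). In BSG 15.8% of the 19 were called, beside 11.7% of all tested genes, and in M-BSG 5.26% beside 6.35%. Their median log2 fold change in BSG was 0.03. None of the 19 was called in M-BSG-Hot against NC, where 4 had an unadjusted p under 0.05. CDKN1A had the highest log2 fold change of the 19 there, 0.27. In M-BSG-Hot against M-BSG it had the lowest, -0.37, and none of the 19 was called.

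Of 14 APC/C subunits 1 was called in BSG, ANAPC10 (log2 fold change 0.37, adjusted p 0.0411), and 0 in the other comparisons by edgeR, where 0 to 2 had an unadjusted p under 0.05. Of 25 S phase genes 1 was called in BSG, CCNE1, the cyclin of S phase entry, at 20.3 ± 0.502 CPM against 14.1 ± 1.45 in NC (log2 fold change 0.53, adjusted p 0.0025), and 0 in the other comparisons by edgeR, where 2 to 5 had an unadjusted p under 0.05. The shares called in BSG were 7.14% of the APC/C subunits and 4% of the S phase genes, beside 11.7% of all tested genes. The median log2 fold change in BSG was 0.09 for the further G2/M genes, 0.19 for the APC/C subunits and 0.08 for the S phase genes, beside 0.05 for the 40 genes and -0.02 for all tested genes. In M-BSG-Hot against M-BSG the medians were -0.06, 0.02 and 0.02.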

How the data were processed

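Counts and FPKM per gene symbol were deposited by the authors, in 1 table of each kind per library, for 12 libraries in 4 groups of 3. The deposited counts are whole and not normalized. The deposited FPKM values are the counts rescaled by a gene length and the library total, for 100% of values above 0 (relative tolerance 1e-06), which gave the gene lengths. In the submitters' processing notes stand GRCm38 and mm10, names of a mouse assembly, while the symbols are human, so the build is unresolved and no gene coordinates are taken from the files. How reads were aligned and counted, with which annotation and strand setting, is not given in the sources used here.

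Counts were fitted with edgeR 4.0.16 in R 4.3.3: TMM scaling, filterByExpr with a minimum count of 10 (15407 of 24180 symbols tested), and the quasi-likelihood test over all 12 libraries, with Benjamini-Hochberg adjustment over all tested genes and calls at an adjusted p under 0.05. Intervals are 95%. A count of 0 allows up to 3 counts. CPM are TMM-scaled. Alternatives were library totals, DESeq2 1.42.0, other filters, 2 groups alone, a replicate block, a gene length correction (a trend of log2 counts on log2 length in each library, removed as an offset) and leaving out libraries. The script was tested on simulated data.

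All 40 genes are named. Values in every library, with SE and adjusted p, are given for genes called in any comparison and for the highest by CPM of each role; KIF23 and PTTG1 were added after their values were seen. Of the lists, up to 4 called genes with the smallest adjusted p per comparison are named; 1 such gene and 1 immune marker are not reported here. The 40 genes, the roles, the lists and the markers were chosen with earlier results of these data known. Replicate pairs differed beyond sampling noise (chi-square per degree of freedom 3.37 to 60.9).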

Additional observations from a re-analysis of the deposited data

How the results depend on the processing

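With 3 libraries a group, calls among the 40 genes depended on settings, and the precision limits them. For each library the median over the 40 genes was taken of log2 CPM minus each gene's mean over the 12 libraries. The pooled SD of these medians within groups was 0.034. BSG against NC (3 higher, 1 lower, median 0.05) gave 1, 2 and -0.032 with library totals, 7 and 2 with DESeq2, 2 lower without a filter, 0 lower with the 2 groups alone, 3 lower and a median of 0.004 with the length trend removed, and 5 and 2 without BSG 1, M-BSG 1 and M-BSG-Hot 3. M-BSG against NC (1 higher, 0 lower) gave 0 and a median of 0 with library totals, 2 higher with DESeq2, with at least 100 counts in each library, with the 2 groups alone and with the length trend removed, and 2 higher and 1 lower without the 3 libraries. M-BSG-Hot against NC (0 called) gave a median of -0.049 with library totals, 1 higher with DESeq2 and with the 2 groups alone, and 1 higher with a median of 0.056 without the 3 libraries. The median of M-BSG against BSG (-0.026) became 0.022 with the length trend removed, and that of M-BSG-Hot against M-BSG (-0.045) became 0.006 without the 3 libraries. Apart from the left-out libraries, the cause was not tested. The shares of all tested genes called with library totals, DESeq2, other filters, the 2 groups alone or the replicate block alone are not given here. The counts under these settings therefore stand without a background.

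Leaving out each library in turn gave 0 to 7 higher, 0 to 2 lower and medians of 0.043 to 0.081 in BSG against NC, 0 to 2 higher and 0.05 to 0.086 in M-BSG, and medians of 0.009 to 0.067 in M-BSG-Hot. The medians were -0.054 to 0.006 in M-BSG against BSG and -0.073 to -0.016 in M-BSG-Hot against M-BSG. Over all tested genes the same fits called 424 to 1329 higher and 429 to 1227 lower in BSG against NC. In M-BSG against NC they called 295 to 635 higher.

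With the replicate block, 5 genes were called higher in BSG against NC. With the block and the length trend removed, 2 were lower there (background 7.56%, median of the 40 genes 0.003). In that fit 2 were higher in M-BSG (background 4.68%) and 1 in M-BSG-Hot (background 2.05%). The median of M-BSG against BSG was 0.022. The labels do not say whether libraries with the same replicate number share a batch. The deviations of 4 of 18 same-numbered pairs correlated above 0.1 (range -0.287 to 0.408, the highest for BSG 1 with M-BSG 1). Of the 12 libraries, 7 correlated best with their own number. Of 1365 values of the 65 results for single genes under these alternatives, 1311 stayed on the same side of the threshold. Most of the 65 results were not called in the main fit and so had no call to lose. Among those 1311, 66 uncalled values changed sign. A call was lost in 34 values, all of them from the few results called in the main fit. Those were AURKA in BSG and M-BSG, and NDC80, BIRC5 and ESPL1 in BSG, each against NC. A call was gained in 20 values, and 0 called values changed sign.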
